A study of Mus musculus with 32 samples.

Results

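Thymocytes of p53+/+ and p53-/- mice were compared after gamma irradiation, 2 arrays against 2. These are 4 of the 32 arrays of the series, chosen by their titles: 1 array of p53+/+ and 1 of p53-/- thymocytes taken 2 h after 5 Gy, and 1 of each taken 4 h after 5 Gy. All mice are labelled C57Bl/6 and 6 weeks old, and each array holds pooled thymocyte RNA of 2 mice, given as 1 male and 1 female. Each genotype also has 2 untreated arrays, which served as the background of the comparison. The other 24 arrays, of P72 and R72 mice, entered only to estimate the spread between arrays. The labels give the genotype of the mice but not how Trp53 was inactivated, and differences can come from any cell of the thymus. Levels are log2 signals relative to the 75th percentile of the array (level 0), and a difference is always p53+/+ minus p53-/-.

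p53 is a transcription factor that is kept scarce by its own target Mdm2 and is stabilised when DNA breaks activate the ATM kinase. It binds paired copies of a short palindromic decamer and switches on genes for cell cycle arrest, DNA repair, apoptosis and its own shutdown. Thymocytes, most of which are CD4 CD8 double positive cells, are among the cells that die most readily by p53-dependent apoptosis after irradiation, chiefly through Bbc3 (Puma) and Pmaip1 (Noxa).

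The binding sequence is visible in the promoters of a few of the genes that differed. The p53 response element, a pair of adjacent decamers with no spacer, was searched with at most 2 mismatches over its 20 bases and with all 4 core C and G positions intact, in the 250 bases upstream of each start in RefSeq's promoter table (GRCm38.p6). The element is its own reverse complement, so 1 strand covers both. It was found in 0.271% of the table's 32851 promoters. Of the genes tested here 12219 had a promoter, and 0.401% of them held it, against 0.99% of the 1515 genes higher and 0.225% of the 1331 genes lower in irradiated p53+/+ thymocytes, which are 15 and 3 genes. Of 29 known p53 targets that were higher and had a promoter, 3 held it, as did 1 of 23 that were not higher. The 3 are shown because they let a reader see the element beside the response; it stands in capitals, 5′ to 3′.
Cdkn1a, 17:29090729-29090978, plus strand: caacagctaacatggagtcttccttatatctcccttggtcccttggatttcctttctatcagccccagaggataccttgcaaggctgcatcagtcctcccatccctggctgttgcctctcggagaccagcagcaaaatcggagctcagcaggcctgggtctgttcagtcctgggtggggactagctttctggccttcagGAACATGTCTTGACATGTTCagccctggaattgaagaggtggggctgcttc
Ccng1, 11:40755287-40755536, minus strand: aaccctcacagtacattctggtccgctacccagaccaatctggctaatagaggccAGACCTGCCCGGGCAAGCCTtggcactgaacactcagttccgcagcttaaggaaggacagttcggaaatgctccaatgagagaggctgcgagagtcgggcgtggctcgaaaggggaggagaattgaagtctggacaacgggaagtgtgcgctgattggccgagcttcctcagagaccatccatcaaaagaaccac
Rps27l, 9:66946163-66946412, plus strand: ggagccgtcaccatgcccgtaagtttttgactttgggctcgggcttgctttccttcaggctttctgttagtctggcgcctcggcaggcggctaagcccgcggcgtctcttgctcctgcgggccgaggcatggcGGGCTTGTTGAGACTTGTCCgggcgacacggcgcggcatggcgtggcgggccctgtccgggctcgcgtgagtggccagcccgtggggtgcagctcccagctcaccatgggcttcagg
Each of the 3 elements has 1 mismatch. They end 31 bases before the listed start for Cdkn1a, 175 for Ccng1 and 97 for Rps27l, and the window is that of 1 listed start where a gene has several. Most known p53 sites lie outside such windows, so the absence of the element from a window says nothing about binding.

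The 4 arrays differed in depth. Their 75th percentile of signal lay between 348 (p53+/+ at 4 h) and 752 (p53-/- at 2 h), and the share of probes well above background ran from 56.8% to 68.6%. All 8 p53+/+ and p53-/- arrays share 1 scan day. Both irradiated p53+/+ arrays lie on slide 7 and both irradiated p53-/- arrays on slide 8, while each untreated genotype has 1 array on each slide. Slide and genotype therefore cannot be told apart within the irradiated arrays. Values with the slide as a fixed block are given beside the counts. That block takes the difference between slides 7 and 8 from the 4 untreated p53+/+ and p53-/- arrays alone. It assumes that the irradiated arrays carry the same difference. The P72 and R72 arrays, all on other slides, add only to the estimate of the spread.

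The targeted gene gave only a partial check of the labels. A probe near the 5′ end of Trp53 (11:69662031-69662089, mm7) read 0.02 and 0.06 in irradiated p53+/+ thymocytes and -0.50 and -0.47 in p53-/- ones, a difference of 0.52 ± 0.24 (SE, adjusted p = 0.12, limma). A probe in the coding sequence (11:69671206-69671265, mm7; mean of 10 spots) read -0.68 and -0.83 against -1.60 and -1.78, with a difference of 0.93 ± 0.43 (adjusted p = 0.13, limma). Its sequence is shown because it is the part of the transcript that the arrays read.
Trp53 coding probe: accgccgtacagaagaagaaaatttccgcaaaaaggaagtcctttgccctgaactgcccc
Transcript was thus measured on every p53-/- array, and neither probe passed the threshold. The coding probe still read lower on every p53-/- array than on every p53+/+ array, with untreated levels of -0.57 and -1.125 in p53+/+ and -1.57 and -1.80 in p53-/- cells. It read -6.995 to -3.646 on the P72 and R72 arrays, which enter the spread of the fit. Which part of the gene was altered is not given in the sources used here, so the level to be found on a p53-/- array is not known. The downstream response was the clearer marker: Phlda3, Bbc3 and Plk2, described next, separated both irradiated p53+/+ arrays from every other p53+/+ or p53-/- array.

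The pools went against their labelled mix of sexes. Xist, which silences an X chromosome in female cells, read 5.50 on both irradiated p53+/+ arrays, -8.82 and -7.20 on the irradiated p53-/- arrays, -0.88 and -1.45 on the untreated p53+/+ arrays and -8.40 and -8.16 on the untreated p53-/- arrays. Ddx3y, a Y-linked gene, read -6.84 and -7.70 on the irradiated p53+/+ arrays, where it was not well above background, and 1.13 and 1.86 on the p53-/- arrays. Eif2s3y and Kdm5d, both Y-linked, split the same way, at -6.84 and -5.02 against 2.28 and 2.45 for Eif2s3y, and at -6.60 and -7.42 against 0.18 and 0.41 for Kdm5d. Uty, also Y-linked, was dim throughout, at -6.71 and -7.51 against -4.44 and -3.73. Genotype and the sex of the pool therefore cannot be told apart on the irradiated arrays. Untreated, Ddx3y read 2.04 and 2.07 on the p53+/+ arrays and 2.01 and 1.98 on the p53-/- ones. Among p53+/+ arrays, irradiation and the sex of the pool thus cannot be told apart either. None of the 9 sex-linked genes tested passed the threshold in the fit (Xist had an adjusted p of 0.11, limma). Xist and Ddx3y varied widely among the untreated P72 and R72 arrays, at -7.92 to 5.67 and -8.51 to 2.08. The SE of the Ddx3y difference was 4.85. Of the 648 genes tested on the X chromosome, 17.6% were called, against 22.2% of all genes.

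A large part of the irradiated thymocyte transcriptome differed between the genotypes, with known p53 targets such as Plk2 and Phlda3 among the largest differences. Over 19808 genes, limma called 4398 at an adjusted p of 0.05, 22.2% of those tested. Among them 2615 (13.2%) were higher and 1783 (9.0%) lower in irradiated p53+/+ thymocytes. Of these, 1832 of the higher genes and 196 of the lower ones differed at least 2-fold. Among the called genes 4361 (99.2%) had the same sign at 2 h and at 4 h, against 75.5% of all genes, and for 4227 of them the levels of the 2 genotypes did not overlap. Non-overlap was common at 2 arrays against 2: it held for 6603 genes on the higher and 5635 on the lower side of all 19808. With the slide as a fixed block the calls were 1020 higher and 347 lower.

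The balance between higher and lower depended on the scaling and on dim genes. The share of calls that were higher was 59.5%, but 48.1% after quantile normalization, 43.4% in the authors' deposited value table and 19.7% when arrays were centred on their median, which moved the median difference of all genes from 0.06 to -0.32. Among the 15478 genes well above background on all 4 arrays 1845 were higher and 1720 lower, and 468 of the 2615 higher genes were above background on neither p53-/- array. The medians of gene groups are therefore given relative to the median of all genes. Fitting the 4 irradiated arrays alone with time as a term left no gene past the threshold in limma, with 4398 (by coincidence the same number) at an unadjusted p under 0.05, of which 2690 are among the calls of the whole fit. A permutation of 2 arrays against 2 cannot give an exact p below 0.333.

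Each time alone is 1 array against 1, so a test of it takes its spread from the other groups, and the sizes of the differences are given here instead. At 2 h, 1852 genes were at least 2-fold higher and 604 at least 2-fold lower in p53+/+ cells, 12.4% of those tested. At 4 h these were 4437 and 448, or 24.7%. Both times showed such a difference in the same direction for 1476 genes on the higher and 131 on the lower side, and 98 genes were 2-fold apart in opposite directions. At 4 h the 75th percentile and median of signal were 348 and 37.6 in p53+/+ against 639 and 46.2 in p53-/- cells. At 2 h they were 489 and 39.3 against 752 and 53.3. Scaling to the 75th percentile thus set the median spot higher in p53+/+ cells, more so at 4 h. The larger count at 4 h is therefore not read as a growing genotype difference.

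**Figure D1:**
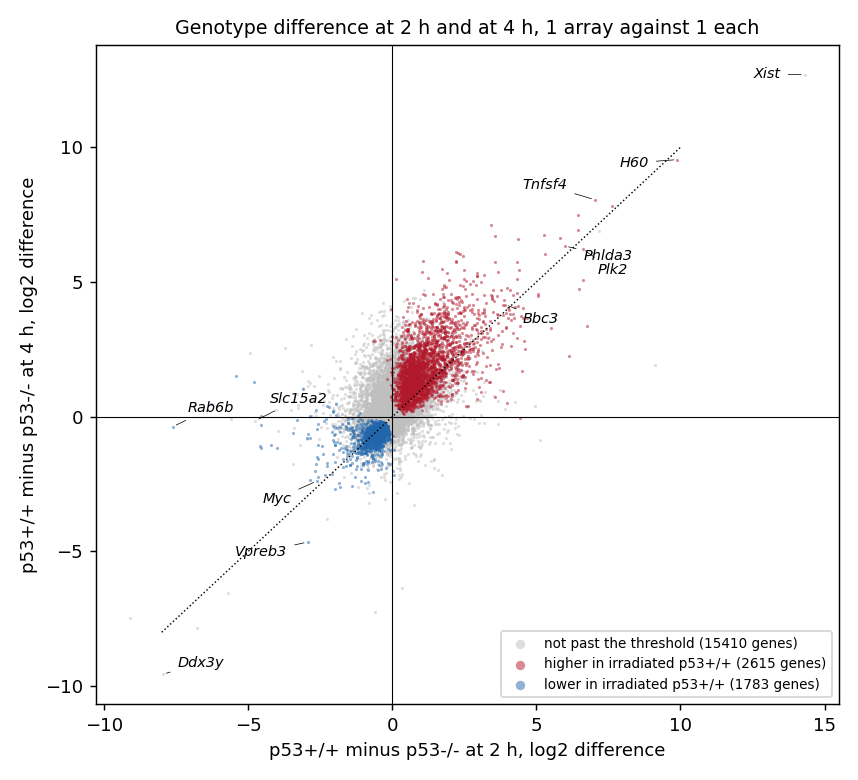
Each point is a gene, with the log2 difference of p53+/+ and p53-/- thymocytes at 2 h (x axis) and at 4 h (y axis), 1 array against 1 at each time; colours mark genes past the threshold of the fit over both times and the dotted line is equality. Phlda3, Plk2 and Bbc3 lie near the line, Rab6b and Slc15a2 differ at 2 h alone, and Xist and Ddx3y lie far out without passing the threshold.

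Most apoptosis-related targets of p53 were higher in irradiated p53+/+ thymocytes. Of 20 such genes tested, 13 were higher and 1 lower, against 13.2% and 9.0% of all genes, and their median difference stood 1.39 above that of all genes (1.44 at 2 h and 1.42 at 4 h), compared with 0.10 in untreated cells. All 13 remained higher with the slide as a block. Bbc3, the BH3-only protein Puma that frees Bax and Bak, read 6.44 at 2 h and 6.69 at 4 h in p53+/+ cells and 2.53 at both times in p53-/- cells. Untreated p53+/+ cells read 3.32 and 3.27, so irradiated p53-/- cells lay below even untreated p53+/+ ones. The difference was 4.04 ± 0.12 (SE, 16.4-fold, adjusted p = 1.31e-16, limma). Pmaip1, the BH3-only protein Noxa, read 3.06 and 3.16 against -1.20 and -0.93, an 18.1-fold difference (4.17 ± 0.26, adjusted p = 5.12e-11). Bax, the pore-forming effector that these proteins release, read 4.15 and 4.38 against 1.64 and 1.51 (2.69 ± 0.15, adjusted p = 7.55e-12). The genotypes did not overlap for any of the 3.

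Phlda3, which blocks the survival kinase Akt at the membrane, had the smallest p of the genes named here. It read 5.37 and 5.41 in p53+/+ and -0.63 and -0.93 in p53-/- cells, 71.9-fold apart (6.17 ± 0.14, adjusted p = 8.91e-19, limma), and 0.22 and 0.23 in untreated p53+/+ cells. Aen, an apoptosis-enhancing nuclease, was at 6.02 and 5.92 against 2.35 and 2.43 (11.9-fold). Zmat3, an RNA-binding target of p53, read 2.10 and 2.63 against -1.12 and -1.13. Ei24 (2.88 ± 0.13), the death receptor Tnfrsf10b (2.66 ± 0.23) and Apaf1 (1.94 ± 0.20), the scaffold of the apoptosome, were higher by 3.82-fold or more. Smaller differences were seen for Fas, the death receptor, at 4.95 and 5.03 against 3.87 and 4.11 (1.00 ± 0.13), for Rps27l (1.11 ± 0.13) and for Trp53inp1, at 7.47 and 7.60 against 6.62 and 6.66 (0.90 ± 0.10). Bid, the BH3-only protein cut by caspase-8, was lower in p53+/+ cells, at 0.91 and -0.01 against 1.16 and 0.96 (-0.61 ± 0.14, adjusted p = 0.0049), a call lost with the slide as a block (adjusted p = 0.11). Bcl2l1, Casp6, Siva1, Triap1, Dapk1 and Perp did not pass the threshold.

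**Figure D2:**
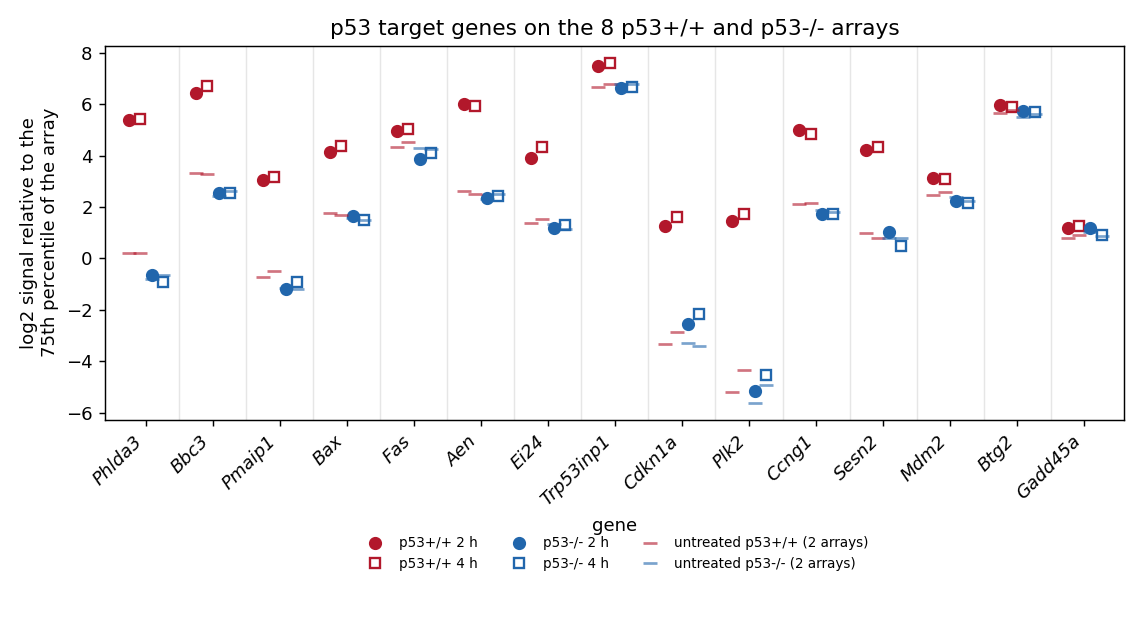
Log2 level relative to the 75th percentile of the array (y axis) of 15 p53 targets (x axis) on the 8 arrays; filled circles are 2 h, open squares 4 h, short bars untreated, red p53+/+ and blue p53-/-. Irradiated p53+/+ points stand above all others for Phlda3, Bbc3, Pmaip1, Bax, Cdkn1a, Plk2, Ccng1 and Sesn2, while the points of Btg2 and Gadd45a lie close together.

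The wider Bcl2 family was split. Of 15 members tested, 5 were higher and 1 lower, against 13.2% and 9.0% of all genes. The median stood 0.12 above that of all genes, a sign that turned to -0.045 with normexp background correction and to -0.21 with no filter on dim probes. Without that filter the median of all genes rose from 0.06 to 0.38, while the median of the family itself stayed the same. Besides Bbc3, Bax and Pmaip1, the BH3-only gene Bcl2l11 (Bim) read 3.77 and 4.39 against 3.22 and 3.13 (0.90 ± 0.15, adjusted p = 0.00029, limma). Bcl2 itself, the survival protein, read 2.90 and 3.04 against 2.17 and 2.38 (0.69 ± 0.18, adjusted p = 0.0089), but its adjusted p was 0.11 with the slide as a block.

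Arrest, repair and feedback targets ranged from very large differences, through small ones that passed the threshold, to genes that did not pass. Of 24 tested, 11 were higher and 2 lower, against 13.2% and 9.0% of all genes, with a median 0.34 above that of all genes. Cdkn1a, the CDK inhibitor p21, read 1.27 and 1.60 in p53+/+ and -2.57 and -2.17 in p53-/- cells (13.9-fold, 3.80 ± 0.33, adjusted p = 3.02e-08, limma); untreated cells of both genotypes read -3.41 to -2.85. Plk2, a polo-like kinase, read 1.46 and 1.72 against -5.15 and -4.52, 85.7-fold apart (6.42 ± 0.41, adjusted p = 1.19e-10). Ccng1, cyclin G1, which recruits phosphatase to Mdm2, read 5.00 and 4.85 against 1.71 and 1.75 (9.18-fold, 3.20 ± 0.15). Untreated cells of both genotypes read 1.79 to 2.17 for Ccng1, above irradiated p53-/- cells.

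Sesn2, a stress-induced brake on mTORC1, read 4.22 and 4.34 against 1.02 and 0.49 (11.5-fold, 3.52 ± 0.19, adjusted p = 3.98e-12, limma). Psrc1, a microtubule regulator, differed by 3.85 ± 0.17, and Gtse1, which counteracts p53 in G2, by 3.11 ± 0.22. Enzymes of DNA repair were among the higher genes. The translesion polymerase Polk read 2.55 and 2.41 against -0.38 at both times (2.87 ± 0.15), and the excision nuclease Ercc5 read 1.23 and 1.48 against -0.46 and -0.40 (1.78). Of the brakes on p53, the phosphatase Ppm1d was higher by 1.38 ± 0.10 and the ubiquitin ligase Mdm2 by 0.91 ± 0.16. Mdm4, Rchy1 and Cop1, other regulators of p53 in the list, did not pass the threshold. Mdm2 read 3.13 and 3.09 against 2.22 and 2.17, a difference of 1.88-fold that is small beside those of Cdkn1a or Plk2.

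Several classical members showed little. Gadd45a, a growth arrest gene, read 1.20 and 1.25 against 1.17 and 0.90 (0.19 ± 0.16, adjusted p = 0.40, limma). Btg2, an antiproliferative gene, read 5.98 and 5.91 against 5.75 and 5.69 (0.22 ± 0.11, adjusted p = 0.15). Ddb2 and Xpc, which sense ultraviolet damage, differed by -0.19 and -0.11. The lower calls were Polh, another translesion polymerase, at -2.91 and -3.06 against -2.09 and -1.93 (-0.98 ± 0.28, adjusted p = 0.016), and Sfn, 14-3-3 sigma, at 2.88 and 2.63 against 3.18 and 3.09 (-0.38 ± 0.12, adjusted p = 0.029), and neither passed with the slide as a block (adjusted p = 0.12 and 0.18).

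Targets in metabolism and signalling followed. Of 19 tested, 10 were higher and none lower, against 13.2% and 9.0% of all genes. Their median stood 0.98 above that of all genes, and the 10 calls held with the slide as a block. Dglucy, D-glutamate cyclase, read 2.98 and 4.11 against -2.30 and -1.92 (50.4-fold, 5.66 ± 0.17, adjusted p = 1.85e-16, limma). Lpin1, a phosphatidate phosphatase, read 2.37 and 2.38 against 0.33 and 0.35 (2.04 ± 0.10), and the proline catabolic enzyme Aldh4a1 read 2.33 and 2.27 against 0.44 and 0.30 (1.93 ± 0.11). Cpt1c, a brain-type carnitine palmitoyltransferase, was above background in p53+/+ cells only, at -3.59 and -1.75, and was at least 23.9-fold higher there. Ptp4a3, a phosphatase, differed by 2.67 ± 0.18, and Gdf15, a secreted stress factor, by 2.61 ± 0.37. Gls2, Tigar, Fdxr, Gpx1 and Prkab1 did not pass the threshold.

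In all, 34 of 63 p53 targets were higher, 3 lower and 26 neither, and 33 of the 34 remained higher with the slide as a block. Sesn1 was the exception (0.40, adjusted p = 0.0084, and 0.13 with the block). These lists collect genes known as targets from many cell types and were drawn up with earlier results of these data known, so their direction is a description.

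Outside the lists, the largest differences included genes that were dim or below background in p53-/- cells. Tnfsf4, the ligand of the co-stimulatory receptor OX40, read 0.79 and 1.08 in p53+/+ and -6.24 and -6.97 in p53-/- cells (7.54 ± 0.39, adjusted p = 2.56e-12, limma), and -6.91 and -6.45 in untreated p53+/+ cells. Robo3, a guidance receptor, read -0.68 and 0.36 against -5.03 and -4.75 (26.5-fold). Ddit4l, a relative of the mTORC1 inhibitor Ddit4, was above background in p53+/+ cells only and at least 25.5-fold higher there. Dnm3, a dynamin, was above background on 1 p53+/+ array and on no p53-/- array (at least 22.7-fold). Klk1b21, a kallikrein, was at -0.41 at 2 h and -3.98 at 4 h in p53+/+ cells and below background in p53-/- cells (at least 33.5-fold), but its adjusted p was 0.14 with the slide as a block. Ott, an X-linked gene, was at least 20.5-fold higher, also without passing under the block (adjusted p = 0.15).

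Some of the largest values belong to genes that differ between mice of this series apart from irradiation. H60, a ligand of the natural killer receptor NKG2D that is known to be polymorphic between strains, read 1.28 and 1.34 in irradiated p53+/+ cells and was below background in p53-/- cells, at least 627-fold lower. Untreated p53+/+ cells were at -6.49 and -8.02, while P72 and R72 thymocytes read 0.29 to 1.80 untreated and -0.11 to 2.05 irradiated. H2-T3, an MHC class I-like gene, read 3.79 and 2.33 against -2.66 and -4.61, but was as far apart untreated, at 2.83 and 2.76 against -5.07 and -5.39. Rab6b, a Golgi GTPase, headed the lower side with a single low array: it read -4.75 in p53+/+ cells at 2 h, 2.34 at 4 h, and 2.86 and 2.71 in p53-/- cells. It ranged from -6.20 to 3.03 among irradiated P72 and R72 arrays. Slc15a2, a peptide transporter, read -2.68 at 2 h and 1.87 at 4 h in p53+/+ cells and 2.06 and 2.02 in p53-/- cells. H2-T3 and Rab6b did not pass with the slide as a block (adjusted p = 0.12 and 0.10).

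DNA replication genes were lower in irradiated p53+/+ thymocytes as a group, by amounts far smaller than those of the p53 targets. Of 30 genes of the G1/S transition and replication tested, 27 were lower and none higher, against 9.0% lower over all genes. Their median stood 0.79 below that of all genes, 0.64 below at 2 h and 0.91 below at 4 h, compared with 0.07 above in untreated cells. With the slide as a block 13 were called lower. Ccne1, cyclin E1, which drives entry into S phase, read 2.55 and 1.66 in p53+/+ and 3.27 and 3.15 in p53-/- cells (-1.10 ± 0.14, adjusted p = 1.43e-05, limma), with 2.48 to 2.70 untreated. Both genotypes thus left the untreated level, p53-/- upward at both times and p53+/+ downward at 4 h.

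Pcna, the sliding clamp of replication, read 6.61 and 5.57 against 7.26 and 6.70 (-0.89 ± 0.14, adjusted p = 0.00011, limma). Mcm6, a subunit of the replicative helicase, read 5.48 and 4.30 against 6.39 and 5.66 (-1.13 ± 0.20). Gins2, which completes that helicase, read 0.50 and -0.59 against 1.71 and 0.75 (-1.28 ± 0.22), and Ung, uracil glycosylase, read 0.39 and -1.04 against 1.63 and 0.17 (-1.22 ± 0.20). The origin licensing factor Cdc6 read 0.76 and -0.01 against 1.71 and 0.89 (-0.93 ± 0.16). E2f1, the transcription factor that drives many of these genes, read -0.31 and -1.52 against 0.40 and -0.54 (-0.84 ± 0.15). Each p53+/+ array was below the p53-/- array of its own time for all 6, and the genotypes overlapped across times only for Ung and E2f1.

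Myc, which promotes growth and proliferation, was among the 12 largest lower differences. It read 0.14 and 0.15 in p53+/+ and 2.75 and 2.54 in p53-/- cells (-2.50 ± 0.45, adjusted p = 0.00060, limma), with 1.45 to 1.90 untreated. The 2 genotypes stood on opposite sides of the untreated level. The amino acid enzyme Bcat1 was lower as well (-2.19, adjusted p = 0.0091).

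Of 31 genes of G2 and mitosis tested, 7 were lower and none higher, against 9.0% and 13.2% of all genes. Their median stood 0.49 below that of all genes, and 1 was called with the slide as a block. Cdk1, the kinase of mitotic entry, read 1.06 and 1.27 against 1.91 and 2.06 (-0.82 ± 0.27, adjusted p = 0.034, limma). Its partner Ccnb1 read -0.47 and 0.50 against 0.23 and 1.28, and 1.61 to 1.78 untreated, so that all 4 irradiated arrays were below the untreated ones. Bub1, of the spindle checkpoint, differed by -0.68 ± 0.21 (adjusted p = 0.028).

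Of 18 genes of DNA break signalling and repair, 7 were lower and none higher, against 9.0% and 13.2% of all genes. Their median stood 0.33 below that of all genes. Chek1, the checkpoint kinase of replication stress, read -0.52 and -1.42 against 0.34 and -0.27 (-1.01 ± 0.22, adjusted p = 0.0026, limma). Parp1, which senses breaks, read 1.98 and 1.32 against 2.49 and 2.02 (-0.60 ± 0.10). Brca1 (-0.52), Mre11a (-0.56), Nbn (-0.59) and Atm (-0.68) were among the others. Only Chek1 and Parp1 passed with the slide as a block.

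**Figure D3:**
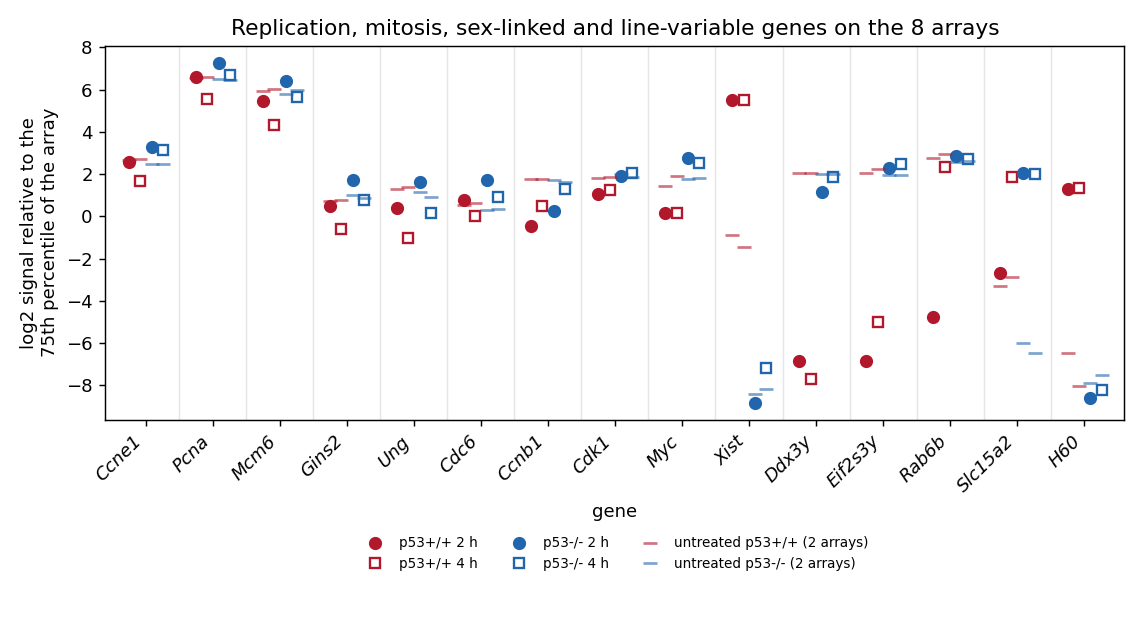
Log2 level relative to the 75th percentile of the array (y axis) of replication and mitosis genes, Myc, sex-linked genes and genes that vary between mice (x axis) on the 8 arrays; symbols are as for the p53 targets, with filled circles 2 h, open squares 4 h, short bars untreated, red p53+/+ and blue p53-/-. Replication genes are separated by about 1 unit at each time, Xist, Ddx3y and Eif2s3y by over 5, and Rab6b and Slc15a2 are low on the 2 h p53+/+ array and not on the 4 h one.

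Some inflammatory genes were higher in irradiated p53+/+ thymocytes. Of 32 NF-kB targets, cytokines and chemokines tested, 9 were higher and 2 lower, against 13.2% and 9.0% of all genes, with a median 0.36 above that of all genes; with the slide as a block 6 were higher and none lower. Il1b, a pyrogenic cytokine, read -1.42 at 2 h and 1.76 at 4 h in p53+/+ cells and -3.22 and -0.64 in p53-/- cells (2.10 ± 0.41, adjusted p = 0.0012, limma), against -3.70 to -3.33 untreated. Both genotypes read higher at 4 h than at 2 h. Ccl3, a macrophage chemokine, read -2.77 and -0.97 against -5.71 and -4.44 (3.20 ± 0.43), and Icam1, an adhesion molecule, read 2.26 and 2.80 against 1.66 and 1.67 (0.87 ± 0.17). The lower genes were Sod2, at 3.40 and 3.20 against 3.97 and 3.78 (-0.58 ± 0.12), and the inhibitor Nfkbie (-0.50 ± 0.13).

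Markers of other cells passed the threshold unevenly, against 13.2% of all genes higher and 9.0% lower. The share that was higher exceeded that of all genes for dendritic cells and thymic epithelium. It fell below that of all genes for macrophages and neutrophils. Among 16 macrophage markers 1 was higher (Cd14, which senses lipopolysaccharide, 1.53 ± 0.39, adjusted p = 0.0086, limma) and none lower, while their median stood 0.25 below that of all genes. Without overlap 5 of them lay lower and none higher, against 5635 lower and 6603 higher of all 19808 genes. The lower count is thus close to the share over all genes. The summed level of the macrophage markers was 5.60 and 6.48 in p53+/+ and 5.81 and 6.14 in p53-/- cells. Among 14 neutrophil markers none passed, with 5.42 and 6.51 against 5.40 and 5.63. Of 14 dendritic cell markers 3 were higher, with 4.76 and 5.64 against 4.49 and 4.63, and of 14 thymic epithelial markers 5 were higher and none with the slide as a block, with 5.20 and 6.04 against 4.97 and 4.57. Each of these 4 sums was highest on the 4 h p53+/+ array, and their part in the inflammatory values was not tested. Fewer cells of a type and less RNA per cell cannot be told apart in pooled thymus RNA.

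Thymocyte identity itself differed little. The counts below stand beside 13.2% higher and 9.0% lower over all genes. Of 18 double positive markers 1 was higher (Cd4, 0.68 ± 0.22, adjusted p = 0.029, limma) and none lower, and their sum ranged from 10.20 to 10.51. Cd8b1 read 8.05 and 8.39 against 7.60 and 7.80, and Dntt, the polymerase of receptor gene rearrangement, 8.40 and 8.45 against 8.02 and 8.22. Of 18 single positive markers 2 were higher and 2 lower, and of 13 double negative markers 3 were higher, among them Notch1 (1.42 ± 0.35) and Il2ra (1.13 ± 0.35), and 1 lower. The B cell markers had 1 higher and 1 lower of 11, the latter Vpreb3, part of the surrogate light chain of pre-B cells. Their median stood 0.39 below that of all genes, 0.04 above at 2 h and 1.42 below at 4 h. In untreated cells it stood 0.81 below, with 2 markers called lower and 0 higher. Natural killer markers had 2 higher (Nkg7 and Gzmb) and 1 lower of 9: Gzma, a granzyme of killer lymphocytes, read 1.31 and 0.81 against 3.98 and 2.81 (-2.34 ± 0.28, adjusted p = 4.24e-06). Erythroid markers had 1 lower of 6, and their sum was 6.00 on the 4 h p53+/+ array against 7.93 to 8.24 on the other 3. Fibroblast and endothelial markers had 2 higher and 1 lower of 13, and adipocyte markers none of 6.

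Immediate early genes, the first to respond to growth and stress signals, were higher for 9 of 24 and lower for 1, which was Myc. Over all genes 13.2% were higher and 9.0% lower. Atf3, a stress-induced repressor, read -2.06 and -0.02 against -3.88 and -3.20 (2.50 ± 0.28, adjusted p = 2.11e-06, limma), against -4.21 to -3.60 untreated. Fos read -2.17 and -1.63 against -3.50 and -2.98 (1.34 ± 0.29), and Nr4a1, induced by antigen receptor signals, 4.43 and 5.01 against 3.89 and 3.88 (0.84 ± 0.24). With the slide as a block 4 remained higher. Of 30 interferon-stimulated genes 2 were higher and 1 lower, and of 10 inflammasome genes 3 were higher, led by Il1rn (1.82), and 1 lower; the first of these is below the share over all genes. Of 14 glucocorticoid-responsive genes 3 were higher, Bcl2l11, Ddit4 and Per1.

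Chaperones were lower in part: 6 of 16 heat shock genes, among them the mitochondrial chaperone Hspd1, at 4.48 and 3.79 against 5.08 and 4.52 (-0.66 ± 0.16, adjusted p = 0.0060, limma), none of which passed with the slide as a block. Of 20 genes of the unfolded protein and integrated stress responses 4 were lower and 1, Sesn2, higher. The share of all genes that were lower was 9.0%. Ribosomal protein genes had 3 higher of 22, close to the 13.2% of all genes, and a median 0.04 above theirs.

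**Figure D4:**
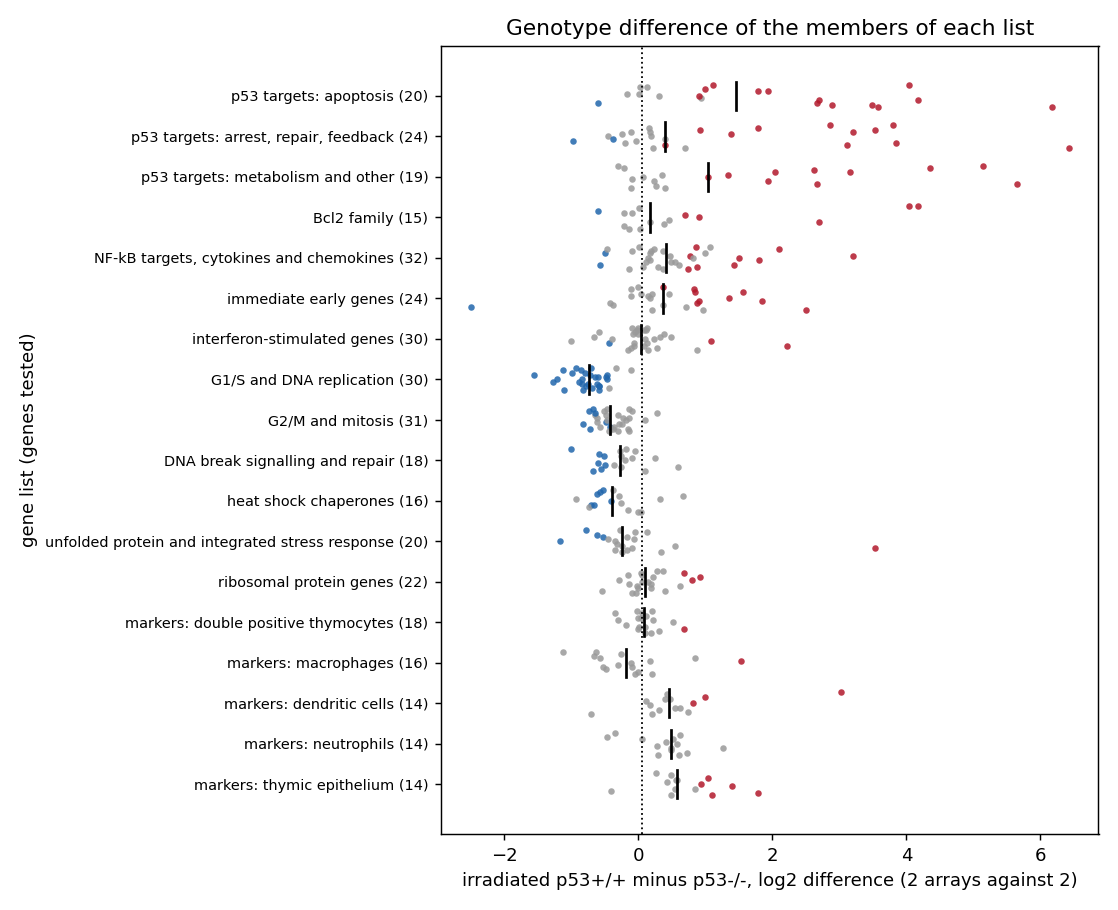
Each point is a gene, placed by its log2 difference between irradiated p53+/+ and p53-/- thymocytes (x axis, 2 arrays against 2) in 18 gene lists (rows, with the number of genes tested); red and blue mark genes past the threshold, black bars the median of a list and the dotted line the median of all genes. The p53 target lists reach beyond 6, replication genes form a narrow group below 0, and the double positive thymocyte markers centre on the dotted line.

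Most of the genotype differences seen after irradiation were not called in untreated cells. Untreated p53+/+ and p53-/- thymocytes differed in 139 genes (limma, 0.702% of those tested), 66 higher and 73 lower. The change of the genotype difference with irradiation was tested directly: 1072 genes passed (5.41%), 624 upward and 448 downward, and 937 of them were also called in the irradiated comparison in the same direction. With the slide as a block 455 passed. By Xist and Ddx3y the sex of the p53+/+ pools also differed between untreated and irradiated arrays, so this comparison carries that difference as well. H60, polymorphic between strains, split the p53+/+ arrays too, at -6.49 and -8.02 untreated and 1.28 and 1.34 irradiated. Whether these pools share a genetic background was not tested. Bbc3 differed by 0.79 ± 0.12 untreated and by 3.25 ± 0.17 more after irradiation (adjusted p = 9.68e-12). Phlda3 differed by 0.95 ± 0.14 untreated and 5.22 ± 0.20 more after irradiation. The genotype difference of Bbc3, Phlda3, Zmat3 (1.00 ± 0.21) and Dglucy (0.97 ± 0.17) was thus present without irradiation. Cdkn1a (0.26 ± 0.33), Bax (0.18 ± 0.15) and Plk2 (0.49 ± 0.41) did not pass the threshold in untreated cells. Mdm2 changed by 0.70 ± 0.23 with irradiation, short of the threshold (adjusted p = 0.078).

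A small set differed by genotype whether irradiated or not. Of the 139 untreated calls, 52 (37.4%) were also called in the irradiated comparison in the same direction, 34 higher and 18 lower, which is 1.18% of the irradiated calls, and 7 were called in opposite directions. Of these 52, 16 (30.8%) lie on chromosome 11 by the arrays' own coordinates, the chromosome of Trp53, against 8.23% of all genes tested and 8.98% of the irradiated calls. Fbxo39, an F-box gene on that chromosome, read 0.35 and 0.58 in irradiated p53+/+ and -3.32 and -3.19 in p53-/- cells, and 0.06 and -0.09 against -3.50 and -3.29 untreated. The Schlafen genes Slfn9 and Slfn8, also on chromosome 11, differed by 3.73 ± 0.87 and 1.57 ± 0.31 irradiated and by 5.01 ± 0.87 and 2.09 ± 0.31 untreated. The others with the largest untreated difference were Tff3 (3.91 irradiated, 2.81 untreated), C1qtnf5 (3.34 and 2.87) and Cass4 (1.52 and 1.88). On the lower side Vpreb3 read -3.92 and -4.01 against -0.98 and 0.64 irradiated, and -4.72 and -4.57 against -0.63 and -0.87 untreated. Irradiation changed its genotype difference by 0.10 ± 0.50.

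**Figure D5:**
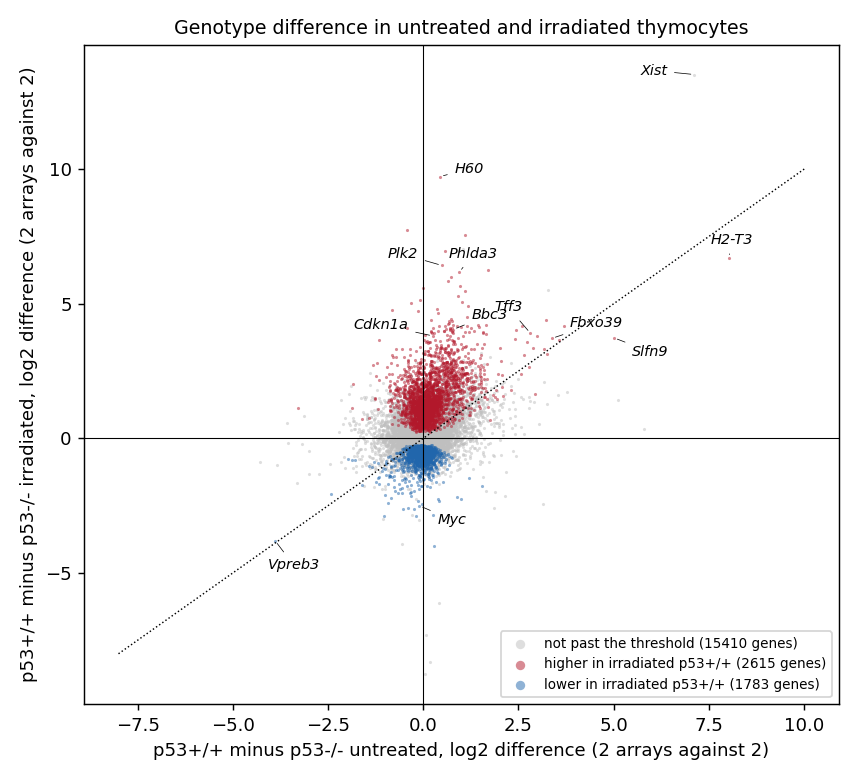
Each point is a gene, with the log2 difference of untreated p53+/+ and p53-/- thymocytes (x axis) and of irradiated ones (y axis), 2 arrays against 2 on each axis; colours mark the calls of the irradiated comparison and the dotted line is equality. Plk2, Cdkn1a and Myc differ after irradiation and hardly before it, while Fbxo39 and Vpreb3 lie near the line.

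The genotype difference changed between 2 h and 4 h for 25 genes (limma, 0.126% of those tested), 21 upward and 4 downward. Without the P72 and R72 arrays none passed, with 3009 at an unadjusted p under 0.05. In most of the named ones a single array decided: Il22, Olfr617, Erc2, Crtac1, Grrp1 and Chst1 were highest on the 2 h p53-/- array. Grrp1, for instance, read 0.13 there and -3.16 at 4 h, against -4.43 and -3.48 in p53+/+ cells. The same array was the high one for Aif1l (0.48), Slit3 (-0.90) and Slc27a2 (-0.60), which, like Grrp1, are among the 12 largest lower differences of the irradiated comparison. On the 4 h p53+/+ array Ampd1, muscle-type AMP deaminase, read -1.66 against 0.32 to 0.50 on the other 3, and Rragd, a GTPase that signals amino acids to mTORC1, -0.86 against 0.55 to 0.88. Among the p53 targets described above, the difference of Phlda3 was 6.00 at 2 h and 6.34 at 4 h, that of Bbc3 3.91 and 4.17, and that of Cdkn1a 3.84 and 3.77. The difference of Cpt1c, above background on neither p53-/- array, was 3.56 at 2 h and 6.71 at 4 h.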

How the data were processed

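RNA of pooled thymocytes was hybridised by the authors to 1-colour Agilent arrays, 1 array per sample, labelled with Cy3 per the labels' protocols. The deposited scanner files, from Agilent Feature Extraction 9.5.3.1 per the file headers (9.5.3 in the submitters' processing notes), hold background-subtracted processed signals as intensity on a linear scale. The authors' deposited value table holds log2 values of the same arrays and served as an alternative. Its scale, centring and normalization are not given in the sources used here. Coordinates are mm7, per the file headers.

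From these, log2 of the processed signal minus the 75th percentile of each array was computed, control and outlier-flagged spots (0.223% of values) were left out, and spots of a probe were averaged. Symbols came from the RefSeq table by accession (22951 probes) or by unique synonym (3109), otherwise from the files. A gene was represented by its brightest probe, kept where 4 or more of all 32 arrays put it well above background, which left 19808 genes. limma 3.58.1 (R 4.3.3) fitted 12 groups with 20 residual degrees of freedom, and Benjamini-Hochberg adjustment ran over all genes. The irradiated comparison is the mean of the differences at 2 h and 4 h. A gene not above background on both arrays of 1 side has only a bound, computed against the dimmest signal that was well above background. With 1 array per genotype and time the spread comes from the P72, R72 and untreated groups, and nothing says that pools were separate beyond the labels.

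On simulated data with known changes the fit of the irradiated comparison (19751 genes) recovered 20.9%, 49.3% and 83.3% of genes changed 1.5-, 2- and 4-fold, with 8 false among 110 calls. The simulated arrays had 200 changed genes, independent errors and no slide or sex difference. The share of false calls among the 4398 of the real comparison therefore cannot be taken from it.

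The comparison and the 28 gene lists were chosen with earlier results of these data known. Named genes were the core p53 and sex-linked genes, the 12 largest non-overlapping calls in each direction, up to 6 per direction for the time, irradiation and untreated comparisons, and up to 4 per list by smallest p, leaving out names that are only identifiers. Other list members are named as examples or exceptions, after their values were seen. Slides, scaling, background correction, filters, probe choice and left-out arrays were varied. Further alternatives were chosen after seeing the data: the filter on all 4 irradiated arrays, each probe tested apart, and the 2-fold minimum.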

Additional observations from a re-analysis of the deposited data

Results flagged for a closer look

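The genotype difference changed with irradiation (interaction in limma) by the largest amounts upward for H60 (9.28), Tnfsf4 (6.45), Plk2 (5.93), Dnm3 (5.36), Phlda3 (5.22) and Cpt1c (5.22), and downward for Slc15a2 (-5.59), Erc2 (-3.30), Tmem267 (-3.10), Aif1l (-3.09), Bcat1 (-3.08) and Rps6ka6 (-3.01). H60 and Slc15a2 also vary between P72 and R72 or p53+/+ mice without irradiation, and Erc2 and Rps6ka6 were well above background on 1 of the 4 irradiated arrays, that of p53-/- cells at 2 h. Aif1l read 0.48 on that array and -2.59 on the 4 h p53-/- array, against -4.13 and -3.68 in irradiated p53+/+ cells. Tmem267 differed in untreated cells (2.43) and not past the threshold after irradiation (-0.67).

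From 2 h to 4 h the genotype difference rose, by an interaction in limma, for Il22 (7.28), Olfr617 (6.97), Erc2 (6.09), Crtac1 (4.85), Grrp1 (4.25) and Chst1 (4.15). It fell for Gja1 (-4.49), Ampd1 (-2.22) and Rragd (-1.67). Each of these rests on 1 array per genotype and time. Whether the pool, the slide or the mice set these values was not tested.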

How the results depend on the processing

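Of 135 named results past the threshold, 130 kept their direction under every alternative run, 76 passed with the slide as a fixed block and 59 did not. Leaving aside left-out arrays and the 4 irradiated arrays alone, 51 kept direction and threshold throughout. The call reversed in sign, without passing in most cases, for Ccr4 (0.043, normexp), Epor (-2.66 with the 2 h and 0.25 with the 4 h arrays alone), Pdgfra (-0.48, at least 2 of 4 irradiated arrays), Zfp945 (0.58, adjusted p = 0.026 in limma, mean of probes) and the irradiation change of Rps6ka6 (0.25, normexp). List medians relative to all genes reversed with no filter for the inflammasome (-0.25), immediate early (-0.019), Bcl2 (-0.21), double negative (-0.24) and natural killer (-0.036) lists. There the median of all genes rose from 0.06 to 0.38, while the medians of the lists themselves stayed the same. Such medians also reversed with normexp for Bcl2 (-0.045) and double negative genes (-0.082), and for the latter at 2 h (-0.087) and 4 h alone (-0.071).

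Calls in limma moved as follows. Normexp background correction gave 470 higher and 416 lower irradiated, 16 untreated, 221 for the irradiation change and 2 for the time change. Median centring gave 1617 higher, 6577 lower and 2325 for the irradiation change. Higher genes numbered 1520 after quantile normalization, 1576 in the authors' table (68 for time) and 1507 with the filter on all 32 arrays. No filter gave 612 for the irradiation change and 16 for time. The slide as a fixed block gave 1020 higher, 347 lower and 455 for the irradiation change, and as a random block 321 untreated and 55 for time. Only the 4 irradiated arrays gave 0 and 0, and the 8 p53 arrays 0 for time. The 2 h arrays alone gave 349 higher, 257 lower and 356 for the irradiation change, and the 4 h arrays alone 2043, 793 and 753. Leaving out untreated arrays in turn gave 27 to 43 untreated calls and 440 to 700 for the irradiation change.

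With the replicate number as a block, which the irradiated p53+/+ and p53-/- arrays do not carry, 2983 genes were higher and 2227 lower, with 210 untreated, 1554 for the irradiation change and 39 for time. No pairing of the irradiated arrays was possible because the labels give them no number. Without a second array per genotype and time, the precision of each time rests on the spread of the other groups, and signals near background limit the dim genes.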
